A study of Mus musculus with 2 samples.

Results

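Lhx6-positive GABAergic interneurons of the newborn mouse dentate gyrus were chosen by their own transcripts: they were the cells of 2 single-cell libraries in which Gad1 and Gad2 each had at least 1 UMI (a counted transcript molecule), at least 2 of the 4 genes Dlx1, Dlx2, Dlx5 and Dlx6os1 had a UMI, and Lhx6 had a UMI. Only barcodes with 500 or more genes, 1000 or more UMIs and no more than 10% mitochondrial UMIs were considered. Of 4996 barcodes kept, 115 met the rule: 62 of 1967 in the KO library and 53 of 3029 in the control library. The KO library came from dentate gyri of 2 postnatal day 2 mice that carried the hGFAP-Cre transgene and floxed Kdm6b (hGFAP-Cre;Kdm6bF/F), pooled. The control library came from 2 pooled littermates, called WT in the labels, whose own alleles and Cre status the labels do not state. hGFAP-Cre is driven by the promoter of the human gene for a glial filament protein and acts in radial glia. Whether recombination reached the lineage of these interneurons is not known from the labels. The comparison asks how loss of KDM6B, an enzyme that removes methyl groups from lysine 27 of histone H3, bears on dentate cells. With 1 library per genotype there was no test between genotypes, no p-value and no replicate check. All intervals are exact 95% intervals that cover counting error only, and each value sets 1 library against the other, not 1 genotype against the other.

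Cortical and hippocampal interneurons are born in the ganglionic eminences of the ventral forebrain and migrate into the hippocampus before and around birth. LHX6, a LIM-homeodomain protein switched on downstream of NKX2-1, marks the cells of the medial ganglionic eminence (MGE), which become somatostatin, parvalbumin and many nitric oxide synthase interneurons. Cells of the caudal ganglionic eminence (CGE) lack LHX6 and express genes such as Prox1, Htr3a and Adarb2. Somatostatin, neuropeptide Y, cortistatin and cholecystokinin are secreted peptides by which mature interneuron types are told apart.

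The comparison between the libraries turns on these 4 peptide genes, and the 250 bases before their transcription starts are shown for reference. The sequences are RefSeq's on GRCm38.p6, each read 5′ to 3′ on the gene's strand. Sst lies at chr16:23890845-23891094 on the minus strand and Npy at chr6:49822460-49822709 on the plus strand. Cort lies at chr4:149126764-149127013 and Cck at chr9:121495695-121495944, both on the minus strand. Capitals mark TGACGTCA, the cyclic AMP response element, searched on both strands.
Sst: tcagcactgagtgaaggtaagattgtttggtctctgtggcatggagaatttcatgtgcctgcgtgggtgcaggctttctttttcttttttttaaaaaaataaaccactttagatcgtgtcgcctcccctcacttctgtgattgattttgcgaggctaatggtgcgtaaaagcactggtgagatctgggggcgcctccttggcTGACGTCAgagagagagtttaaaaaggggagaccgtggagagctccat
Npy: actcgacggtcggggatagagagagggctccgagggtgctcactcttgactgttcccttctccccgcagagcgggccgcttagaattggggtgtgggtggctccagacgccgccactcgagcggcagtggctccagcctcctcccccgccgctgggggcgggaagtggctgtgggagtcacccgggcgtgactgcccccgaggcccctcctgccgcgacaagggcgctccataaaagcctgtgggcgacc
Cort: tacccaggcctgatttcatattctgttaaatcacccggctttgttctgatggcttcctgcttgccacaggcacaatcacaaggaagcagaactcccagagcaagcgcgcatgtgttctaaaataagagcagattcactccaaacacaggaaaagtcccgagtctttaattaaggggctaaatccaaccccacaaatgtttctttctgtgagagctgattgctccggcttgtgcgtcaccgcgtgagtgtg
Cck: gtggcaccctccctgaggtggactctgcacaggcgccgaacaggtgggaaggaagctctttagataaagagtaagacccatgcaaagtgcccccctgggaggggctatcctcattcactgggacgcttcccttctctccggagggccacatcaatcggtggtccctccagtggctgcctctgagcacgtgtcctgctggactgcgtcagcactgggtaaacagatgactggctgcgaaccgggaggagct
The element stands in the Sst window, its first base at position 203 counted from the window's 5′ end, and in none of the other windows. Of 32851 promoter windows of 250 bases, 508 (1.55%) hold it. The match is a description of these letters.

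The label held against the marker genes in both libraries. Gad1 and Gad2, the enzymes that make GABA, and Lhx6 are present in every member by the rule. Sst, which the rule did not use, had a UMI in 35 of 62 KO members (56.5%) and 32 of 53 control members (60.4%), against 5 of 44 KO and 3 of 60 control cells of the same gate with no Lhx6 UMI. In endothelial cells, a type that should lack Sst, the shares were 2 of 200 in the KO library and 8 of 221 in the control library. Npy had a UMI in 43 of 62 KO members and 48 of 53 control members. Of the cells with no Lhx6 UMI, 10 of 44 KO and 19 of 60 control cells had an Npy UMI. By summed UMIs Npy was not at least 2-fold higher in members than in those cells in both libraries. The 5 CGE markers Adarb2, Htr3a, Sp8, Prox1 and Nr2f2 summed to 57.2 CPM (UMIs per 1000000 UMIs of the class) in KO members and 53.6 CPM in control members, against 959 CPM in KO and 1069 CPM in control Lhx6-negative cells. Nkx2-1, the MGE factor upstream of Lhx6, had 5 UMIs in KO members and 9 UMIs in control members, and Lhx8, a factor of ventral cholinergic and projection neurons, had none in either. Vip also had no UMI in any member. Pvalb had 5 UMIs in KO members and 1 UMI in control members, so parvalbumin cells cannot be told apart by that gene at this age and depth. Microglial, fibroblast and Cajal-Retzius marker lists summed to at most 4 UMIs in the members of either library.

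A few members also carried many transcripts of another cell type. Members with at least 10 UMIs summed over 1 of 10 marker lists of other cell types numbered 5 of 62 in the KO library and 6 of 53 in the control library, and are called mixed members. In the KO library, 3 of them had 49, 20 and 13 UMIs of Neurod6, a gene of excitatory neurons, and 1 had 146 UMIs of Fabp7, a radial glia gene, and 69 of Apoe, a lipid carrier of glia. The remaining 1 had 18 radial glia and 9 ependymal marker UMIs. In the control library, 5 had 23 to 36 Neurod6 UMIs, and 1 had 353 UMIs over 5 endothelial markers, 256 of them Cldn5, with 1 Lhx6 UMI. Results between the libraries are given with and without these cells for some genes and lists only. Other values may also move without them. No barcode was shared between the libraries among members, and 9 barcodes were shared over all deposited ones.

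Depth, mitochondrial content and sex also differed between the libraries. Members held 1276297 UMIs in the KO library (median 20171.5 per cell) and 913623 UMIs in the control library (median 15442), while all kept barcodes had medians of 9411 and 7394 UMIs in the KO and control libraries. Mitochondrial genes took 4.60% of the UMIs of KO members and 3.79% of those of control members, and 21 of 62 KO members but 5 of 53 control members lay at or above 5%. Among KO members 61 had Xist and no Y-linked UMI, and none had a Y-linked UMI. Among control members 24 had Xist only, 21 had Y-linked UMIs only, 4 had both and 4 had neither. Sex and genotype therefore cannot be told apart in the members as a whole.

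Members formed a larger share of the KO library than of the control library. They were 3.15% of kept KO barcodes (interval 2.42 to 4.02%) and 1.75% of kept control barcodes (1.31 to 2.28%), a log2 ratio of 0.85 with a ratio interval of 1.23 to 2.65. With the stricter filter of 1000 genes, 2000 UMIs and 5% mitochondrial UMIs the shares were 2.92% in the KO library and 1.91% in the control library, and the interval (0.985 to 2.38) held 1. Drawing KO UMIs at random, in the ratio of the libraries' median depths, left 2.77% of KO barcodes against 1.75% of control barcodes (1.06 to 2.36). Shares of a library add up to a whole: the excitatory neuron gate held 12.5% of KO and 21.6% of control barcodes, and the endothelial gate 10.2% of KO and 7.3% of control barcodes. Lhx6-negative cells of the gate were 2.24% of KO and 1.98% of control barcodes, with a ratio interval (0.747 to 1.69) that held 1. Members were 58.5% of the GABAergic gate in the KO library (48.5 to 68.0%) and 46.9% in the control library (37.5 to 56.5%), and the interval of that ratio (0.850 to 1.83) held 1. Where only Xist-positive barcodes without Y-linked UMIs were counted, members were 3.30% of KO and 1.80% of control barcodes (1.12 to 3.07). The part of dissection and cell recovery in these shares was not tested.

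The rule's edges were as follows. With exactly 1 Lhx6 UMI there were 7 KO and 10 control members, and their level of Maf, a transcription factor of the MGE lineage, was 294 CPM in the KO library and 216 CPM in the control library, where the cells of the gate with no Lhx6 UMI had 129 CPM in the KO and 107 CPM in the control library. Other markers did not all follow: in the 7 KO members Sst was at 84.1 CPM and Npy at 92.5 CPM, below the 207 and 584 CPM of KO cells with no Lhx6 UMI, and they held 13 of the 23 Adarb2 UMIs of KO members. In the 10 control members Sst was at 1998 CPM and Npy at 1230 CPM, against 11.2 and 358 CPM in control cells with no Lhx6 UMI. Just outside the Dlx condition, 11 KO and 6 control barcodes had Gad1, Gad2 and Lhx6 UMIs with 1 of the 4 Dlx genes. Sst was at 559 CPM in those KO barcodes and 1138 CPM in those control barcodes. Outside the gate, 35 KO and 36 control barcodes held Lhx6 UMIs, and 6 KO and 8 control barcodes of these had at least 10 endothelial UMIs. In the endothelial gate, which should lack the gene, 2.50% of KO and 3.17% of control cells had an Lhx6 UMI.

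Members differed from the Lhx6-negative cells in the genes that divide MGE from CGE interneurons. These levels describe the contrast that chose the members and carry no test. Of 7810 genes with at least 20 UMIs over both classes in each library, 125 (1.6%) were at least 2-fold higher in members in both libraries and 98 (1.25%) at least 2-fold lower. The 10 most above include Lhx6 itself, by the rule. Lgals1, which codes for the lectin galectin-1, had 1170 UMIs in KO members and 11 UMIs in KO Lhx6-negative cells, and 494 UMIs in control members and 2 UMIs in control Lhx6-negative cells. Tac1, the gene of substance P, had 280 UMIs in KO members against 1 UMI in KO Lhx6-negative cells, and 167 UMIs in control members against 4 UMIs in control Lhx6-negative cells. Within this gate, nearly all UMIs of both genes lay in Lhx6-positive cells.

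Other secreted and synaptic genes among the 10 most above were Cort, Crhbp, Cbln4 and Nxph1. Crhbp, which codes for a protein that binds corticotropin-releasing hormone, had 126 CPM in KO members and 75.5 CPM in control members, against 4.11 CPM and no UMI in the Lhx6-negative cells of the KO and control libraries. Cbln4, a secreted synaptic organizer, was higher in members by 3.54 on the log2 scale in the KO library and 4.63 in the control library. Nxph1, a ligand of neurexins, was higher by 3.06 in the KO library and 2.93 in the control library. Klf5, a zinc-finger factor, was higher by 2.89 in the KO library and 3.11 in the control library. Akr1c18, an enzyme that breaks down progesterone, had 124 UMIs in KO members and 67 in control members, against 0 UMIs in KO and 1 UMI in control Lhx6-negative cells.

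The genes most below in members were led by Cxcl14, a chemokine of CGE interneurons. It had 7 UMIs in KO members and 651 UMIs in KO Lhx6-negative cells, and 3 UMIs in control members and 1002 UMIs in control Lhx6-negative cells. Htr3a, the serotonin-gated channel that defines many CGE cells, had 3 UMIs in KO members and none in control members, against 219 UMIs in KO and 92 in control Lhx6-negative cells. Cnr1, the cannabinoid receptor of cholecystokinin basket cells, differed by -4.75 (log2) in the KO library and by -5.23 in the control library. Adarb2 differed by -4.52 in the KO library and -7.37 in the control library, Ndnf, a marker of neurogliaform cells, by -3.80 and -3.55, Syt6 by -5.97 and -6.57, and Rgs12 by -4.62 and -3.32. Prok2, Ntng1 and Cadps2 complete the 10. Of 17 measured genes of the CGE list, 11 were at least 2-fold lower in members in both libraries and 1, Tox, was higher, with list medians of -2.81 in the KO library and -2.67 in the control library. Of 16 measured MGE genes, 8 were higher (Cux2, Elfn1, Lhx6, Maf, Nxph1, Satb1 and Sst among them) and none lower, with medians of 1.11 and 1.42 in the KO and control libraries. Lhx6 counts among these 8 by the rule, and the medians of the list include it. Over all 7810 genes the medians were -0.05 in the KO library and -0.04 in the control library.

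**Figure D1:**
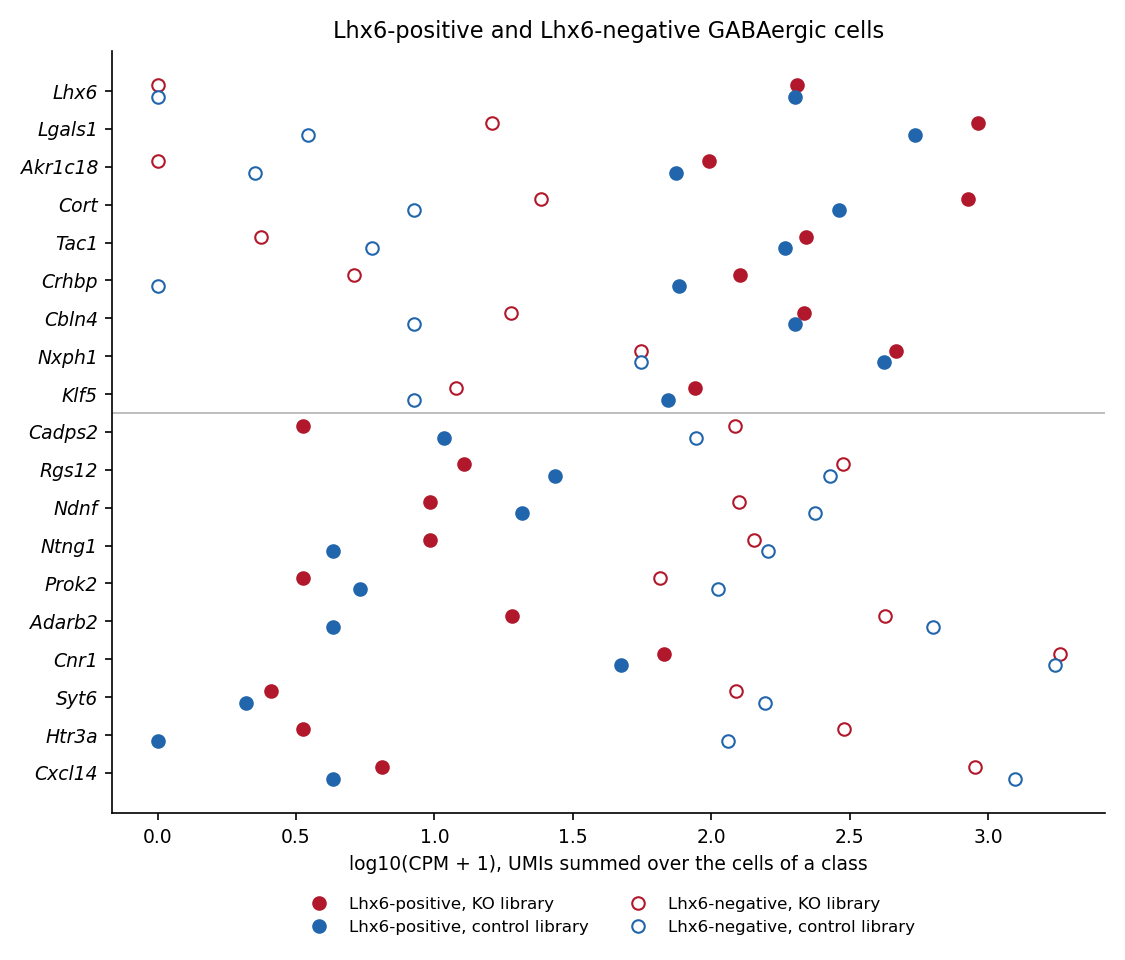
Level of 9 of the 10 genes most above (upper rows) and the 10 most below (lower rows) in Lhx6-positive cells against Lhx6-negative cells of the same gate, as log10 of CPM plus 1, with filled points for Lhx6-positive and open points for Lhx6-negative cells, red for the KO library and blue for the control library. In every row both filled points lie on the same side of both open points, in the Lhx6 row by the rule.

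Within the members, cells with Sst UMIs and cells without formed contrasting profiles in both libraries. The 35 KO and 32 control members with Sst UMIs were deeper (median 25122 and 16778 UMIs) than the 27 KO and 21 control members without (16589 and 11523 UMIs), so the split itself depends on depth, and levels are in CPM. Mixed members were kept in the split. Those without Sst UMIs had 30613, 20737 and 17744 UMIs in the KO library, and 53761, 35038, 30943 and 24463 UMIs in the control library. The split was not repeated without them, and the part of other cell types' RNA in its ratios was not tested. Npy was at 1220 CPM in KO cells with Sst UMIs and 171 CPM in those without, and at 2078 CPM in control cells with Sst UMIs and 664 CPM in those without. Satb1, a chromatin organizer needed for the maturation of somatostatin interneurons, was higher in cells with Sst UMIs by 2.72 in the KO library and 2.90 in the control library. Reln, the secreted guidance protein reelin, was higher by 2.48 and 2.00 in the KO and control libraries. Elfn1, a postsynaptic protein of somatostatin cells, was higher by 2.33 and 2.11, and Grin3a, an NMDA receptor subunit, by 1.27 and 1.65. For these 5 genes the ratio intervals lay above 1 in both libraries.

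Other genes were lower in the cells with Sst UMIs. Cck was at 72.1 CPM in KO cells with Sst UMIs against 557 CPM in KO cells without, and at 52.4 CPM against 208 CPM in the control library. Mef2c, a transcription factor of maturing MGE cells, differed by -1.13 in the KO library and -1.20 in the control library, and Tac1 by -1.24 and -0.96. Erbb4, the neuregulin receptor of migrating interneurons, differed by -2.35 in the KO library and -1.19 in the control library. Nos1, the neuronal nitric oxide synthase, had 2 UMIs in KO cells with Sst UMIs and 16 UMIs in those without, and 5 UMIs and 15 UMIs in the control library. The intervals of these 5 genes lay below 1 in both libraries. Cort did not follow the split alike: it was higher by 1.24 in control cells with Sst UMIs (ratio 1.74 to 3.32), while in the KO library the interval (0.951 to 1.23) held 1.

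Sst and Npy overlapped in both libraries. Both genes had UMIs in 32 KO members, Sst alone in 3, Npy alone in 11 and neither in 16. In the control library both had UMIs in 31 members, Sst alone in 1, Npy alone in 17 and neither in 4. Npy had a UMI in 48 of 53 control members, so the overlap there says little. With each cell drawn at random down to 2000 UMIs, both genes had UMIs in 21 KO members, Sst alone in 7, Npy alone in 11 and neither in 23. In the control library these were 25, 1, 13 and 14. The association of the 2 genes was not tested.

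**Figure D2:**
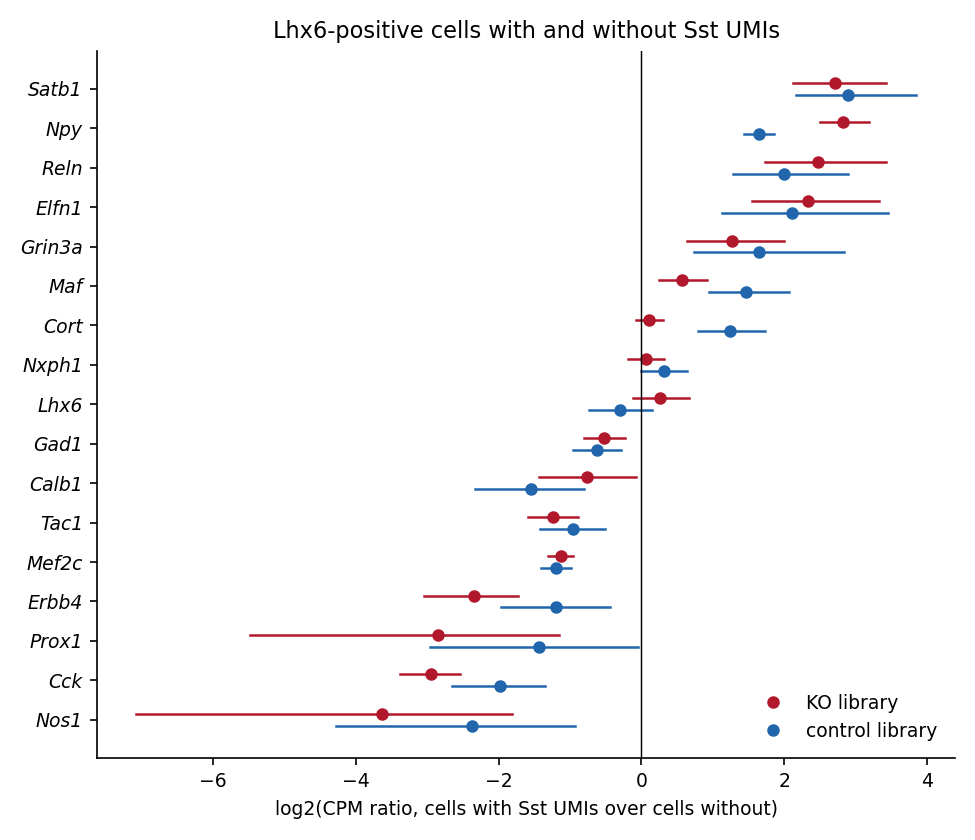
Log2 ratio of CPM between Lhx6-positive cells with Sst UMIs and those without, for 17 genes in the KO library (red, upper point of each row) and the control library (blue), with exact 95% intervals as lines. Satb1, Npy, Reln, Elfn1, Grin3a and Maf lie right of 0 in both libraries, and Gad1, Calb1, Tac1, Mef2c, Erbb4, Prox1, Cck and Nos1 lie left of it.

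Between the libraries, no measured gene of GABA synthesis and transport in the members passed 1.5-fold, while Npy was lower and Cck higher in KO members. Of 8715 genes with at least 20 UMIs in members, 654 (7.5%) were at least 1.5-fold higher and 902 (10.3%) at least 1.5-fold lower in KO members, and the median log2 ratio of KO over control was -0.03. Without mixed members these were 684 (8.51%) and 669 (8.32%) of 8040 genes. By the same rule 6.66% of genes were higher and 8.88% lower in Lhx6-negative cells, 5.36% and 8.42% in excitatory neurons, and 4.11% and 6.06% in endothelial cells. The counts rest on few molecules per gene: with a minimum of 50 UMIs they were 283 higher and 331 lower of 5950 genes.

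The GABA machinery showed no gene past 1.5-fold. Gad1 had 420 UMIs in KO members and 294 UMIs in control members (log2 ratio 0.03, ratio 0.879 to 1.19), and Gad2 had 426 UMIs and 250 UMIs (0.29, 1.04 to 1.43). The rule requires a UMI of Gad1 and of Gad2 in every member, so their levels are not independent of how the cells were chosen. Slc32a1, which loads GABA into vesicles, differed by 0.11. Of 10 measured genes of GABA synthesis and transport, none was 1.5-fold higher or lower, with a median of 0.17. Lhx6, whose detection the rule requires, had 258 UMIs in KO members and 182 UMIs in control members (0.02, 0.836 to 1.23). Of 19 measured MGE genes, 1 was higher (Gria4) and 4 were lower (Ndrg1, Npy and Nxph2 among them), with a median of 0.04. Leaving out mixed members gave 0 higher and 3 lower of 18 MGE genes, with a median of -0.13. Among the MGE genes, with all members, Maf had 376 UMIs in KO and 203 in control members (0.41). Satb1 had 312 and 212 UMIs (0.07) and Sox6 18 and 11 UMIs (0.20).

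Npy was lower in KO members. It had 1092 UMIs in KO members (856 CPM) and 1443 UMIs in control members (1579 CPM), a log2 ratio of -0.88 with a ratio interval of 0.50 to 0.586. Of single cells, the median was 1.84 per 10000 UMIs and the highest 67.2 in KO members, against a median of 13.0 and a highest of 85.5 in control members. The ranges overlapped, and the median lay lower in KO members. After each cell was thinned to 2000 UMIs, which left out no member, 51.6% of KO members (38.6 to 64.5%) and 71.7% of control members (57.7 to 83.2%) had an Npy UMI, against unthinned shares of 69.4% and 90.6% in the KO and control libraries. In endothelial cells, which should lack Npy, the thinned share was 0 of 191 in the KO library, for which a limit of 3 counts allows up to 1.57%, and 0.935% in the control library, with unthinned median depths of 21855 and 23528 UMIs. The unthinned endothelial shares were 0.5% in the KO and 5.43% in the control library, so the background of Npy was not equal. One control member held 252 of the Npy UMIs, and without the richest cell of each library the ratio was -0.77. Without mixed members it was -1.19, and under the stricter filter -0.66 (0.577 to 0.692). Over 16 alternatives, a restriction to those Xist-positive cells among them, the Npy ratio lay between -1.19 and -0.66.

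By summed UMIs, Sst was slightly lower in KO members. It had 1470 UMIs in KO members (1152 CPM) and 1329 UMIs in control members (1455 CPM), a log2 ratio of -0.34 (0.735 to 0.853), and -0.55 without mixed members. The log2 ratio lay between -0.76 and -0.05 over 16 alternatives. Per cell the median was 3.21 per 10000 UMIs in KO members and 0.737 in control members. The upper quartile was 19.0 in KO and 17.4 in control members. The highest cell was at 87.9 in KO and 123 in control members, so it ran opposite to the median and upper quartile. The thinned shares of cells with an Sst UMI were 45.2% in KO members and 49.1% in control members, with overlapping intervals. The 5 richest KO members held 542 of 1470 UMIs, against 666 of 1329 UMIs in the 5 richest control members.

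Cort, the somatostatin-related peptide cortistatin, had the highest ranked excess in KO members, and it lay in few cells. It had 1072 UMIs in KO members (840 CPM) and 263 UMIs in control members (288 CPM), a log2 ratio of 1.54 (2.55 to 3.35). The share of cells with a Cort UMI was alike, 64.5% of KO members and 64.2% of control members, and thinned it was 29.0% in KO and 32.1% in control members. The 5 richest KO members had 227, 171, 144, 132 and 80 UMIs, together 754 of 1072, and the 5 richest control members had 41, 33, 29, 19 and 14. Each of these 5 KO cells had between 5.20 and 9.64% mitochondrial UMIs, while the 5 control cells had between 3.29 and 4.80%. Under the stricter filter, whose limit is 5% mitochondrial UMIs, 41 KO and 48 control members were left, with 176 Cort UMIs in KO and 236 in control members and a ratio of -0.34 (0.647 to 0.965). The higher Cort level therefore ended, and its direction turned, when the cells with more mitochondrial UMIs were left out. The part of mitochondrial content in the Cort difference was not tested further.

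Cck was higher in KO members with and without those cells. It had 307 UMIs in KO members and 98 UMIs in control members, a log2 ratio of 1.16 (1.78 to 2.84), 1.53 without mixed members and 1.48 under the stricter filter. Over 16 alternatives, that restriction among them, it lay between 0.74 and 1.53. A Cck UMI was found in 23 of 62 KO members and 24 of 53 control members, and after thinning in 22.6% of KO and 15.1% of control members, against 0.524% of KO and 2.80% of control endothelial cells. The highest cell had 40 UMIs in the KO library and 12 in the control library. Crh, the stress peptide corticotropin-releasing hormone, had 61 UMIs in 8 KO members and 12 UMIs in 4 control members, and 36 of the KO UMIs lay in 1 cell. Among members with 2 or more Lhx6 UMIs the Crh ratio was -0.054, against 1.82 with all members. Of 20 measured genes of neuropeptides and their processing, 4 were higher in KO members (Cck, Cort, Crh and Crhbp) and 1 was lower (Npy), with a median of 0.06. Over all genes 7.5% were higher and 10.3% lower. Under the stricter filter Crhbp had 59 UMIs in KO and 65 UMIs in control members (-0.054), so its call, like that of Cort, ended without the cells of more mitochondrial UMIs. Over 16 alternatives the median of the list lay between -0.11 and 0.16. Pcsk1n, an inhibitor of a peptide-processing protease, differed by -0.01.

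**Figure D3:**
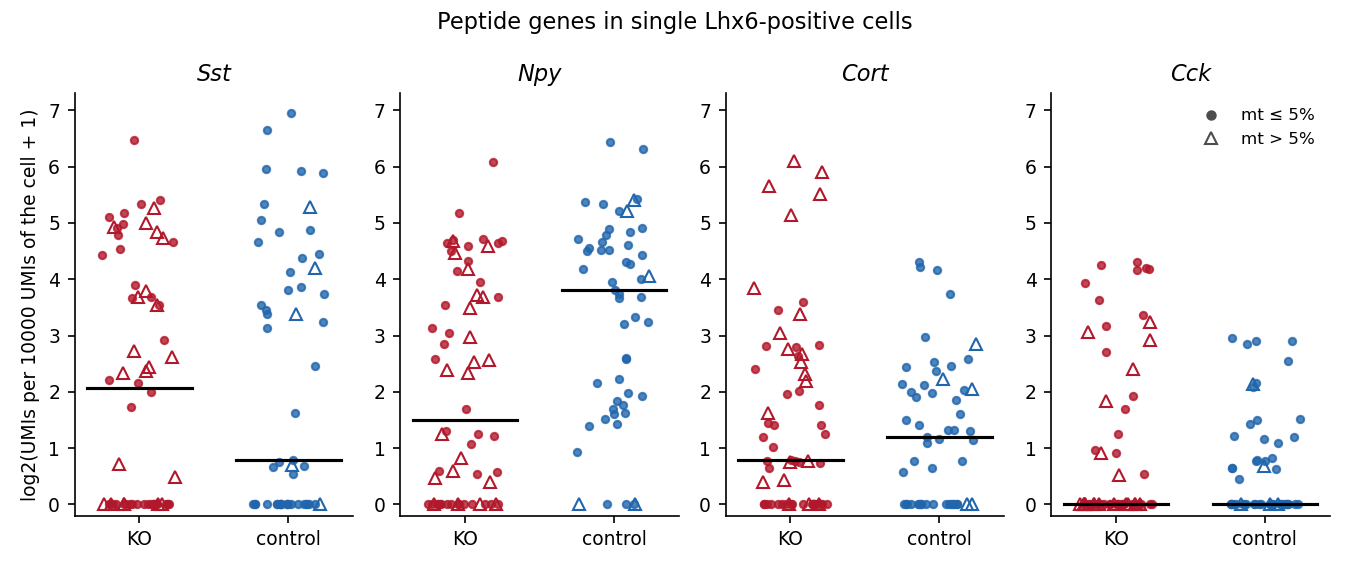
UMIs per 10000 of Sst, Npy, Cort and Cck in each Lhx6-positive cell, on a log2 scale after adding 1, in the KO library (left, 62 cells) and the control library (right, 53 cells), with black lines at the median and open triangles for cells above 5% mitochondrial UMIs. The 5 highest Cort values are KO triangles, and the Npy median lies lower in the KO library.

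Other genes that were higher in KO members had varied roles. Adcy1, a calcium-stimulated adenylyl cyclase, had 536 UMIs in KO and 177 UMIs in control members (1.11, 1.83 to 2.58). It was 0.93 without mixed members and 0.56 under the stricter filter. Pcdh17, a protocadherin, had 228 UMIs in KO and 67 UMIs in control members (1.28), and 0.67 under the stricter filter. The 5 richest KO cells of Pcdh17 all had over 5% mitochondrial UMIs, as did 4 of the 5 richest of Adcy1, and the part of mitochondrial content was not tested. Pcdh17 was also higher in KO excitatory neurons, at 314 CPM against 94.6 CPM in control excitatory neurons (1.73). In Lhx6-negative cells Pcdh17 had 99 UMIs in the KO and 129 UMIs in the control library (-0.24), and a UMI in 28.6% of thinned KO and 45.0% of thinned control cells. Pde1a, a calcium-dependent phosphodiesterase, had 86 and 22 UMIs in KO and control members (1.46), Ctsc, the protease cathepsin C, 63 and 14 UMIs (1.65), and Eno2, the neuronal enolase, 46 and 8 UMIs (1.97). Under the stricter filter the ratios of Pde1a and Ctsc were 1.72 and 1.59, while the interval of Eno2 (0.943 to 6.97) held 1. The long noncoding RNA AI504432, which lies opposite an annotated antisense gene, had 75 UMIs in KO and 17 UMIs in control members. Trnp1 and Alkal2 ranked among the 10 most above once mixed members were left out, and the Alkal2 ratio was -0.012 under the stricter filter against 1.38 with all members.

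The remaining genes most above, Fabp7 and Apoe, rested on 1 KO cell. Fabp7 had 176 UMIs in KO and 35 UMIs in control members (1.83), and Apoe 108 and 28 UMIs (1.45). Without mixed members the ratios were -0.64 for Fabp7 and -0.0064 for Apoe.

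All 10 genes most below in KO members lay in 1 mixed control cell with an endothelial profile. Cldn5, a tight-junction protein of brain endothelium, had 9 UMIs in KO members and 276 UMIs in control members (-5.35), and -1.49 without mixed members. Slc38a5, Pglyrp1, Serpinh1, Sparc, Itm2a, Igfbp7, Selenop, Esam and Vwa1 had ratios from -5.91 to -2.92 with all members, and once mixed members were left out 7 of these 9 had intervals that held 1, Vwa1 with a ratio of 0.53. Slc38a5 and Sparc stayed below 1.

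Without mixed members the list of genes most below was led by Ifitm2, an interferon-induced membrane protein, and Npy. Ifitm2 had 32 UMIs in KO members and 74 UMIs in control members (-1.68), -1.98 without mixed members and -2.24 under the stricter filter. Its ratio was -0.66 in Lhx6-negative cells and -0.66 in excitatory neurons. Sparcl1, a secreted synapse-promoting protein, had 211 and 272 UMIs in KO and control members (-0.85) and was -1.07 under the stricter filter. Stmn4, a microtubule regulator of neurons, had 958 and 968 UMIs (-0.50), and Tsc22d1, a transcriptional regulator, 529 and 563 UMIs (-0.57). Rer1, which retrieves proteins to the endoplasmic reticulum, had 137 and 157 UMIs (-0.68), Nelfb, a subunit of the complex that pauses RNA polymerase, 49 and 71 UMIs (-1.01), Uck1, a uridine kinase, 34 and 47 UMIs (-0.94), and Thsd7a 77 and 90 UMIs (-0.71). Calb2, the calcium-binding protein calretinin, had 10 UMIs in 7 KO members and 41 UMIs in 14 control members (-2.47, 0.078 to 0.354). Thinned, 0 of 62 KO members, for which a limit of 3 counts allows up to 4.84%, and 13.2% of control members had a Calb2 UMI, with unthinned shares of 11.3% in KO and 26.4% in control members. The unthinned endothelial shares were 1.5% in the KO and 10.9% in the control library, so the gene's background was not equal.

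**Figure D4:**
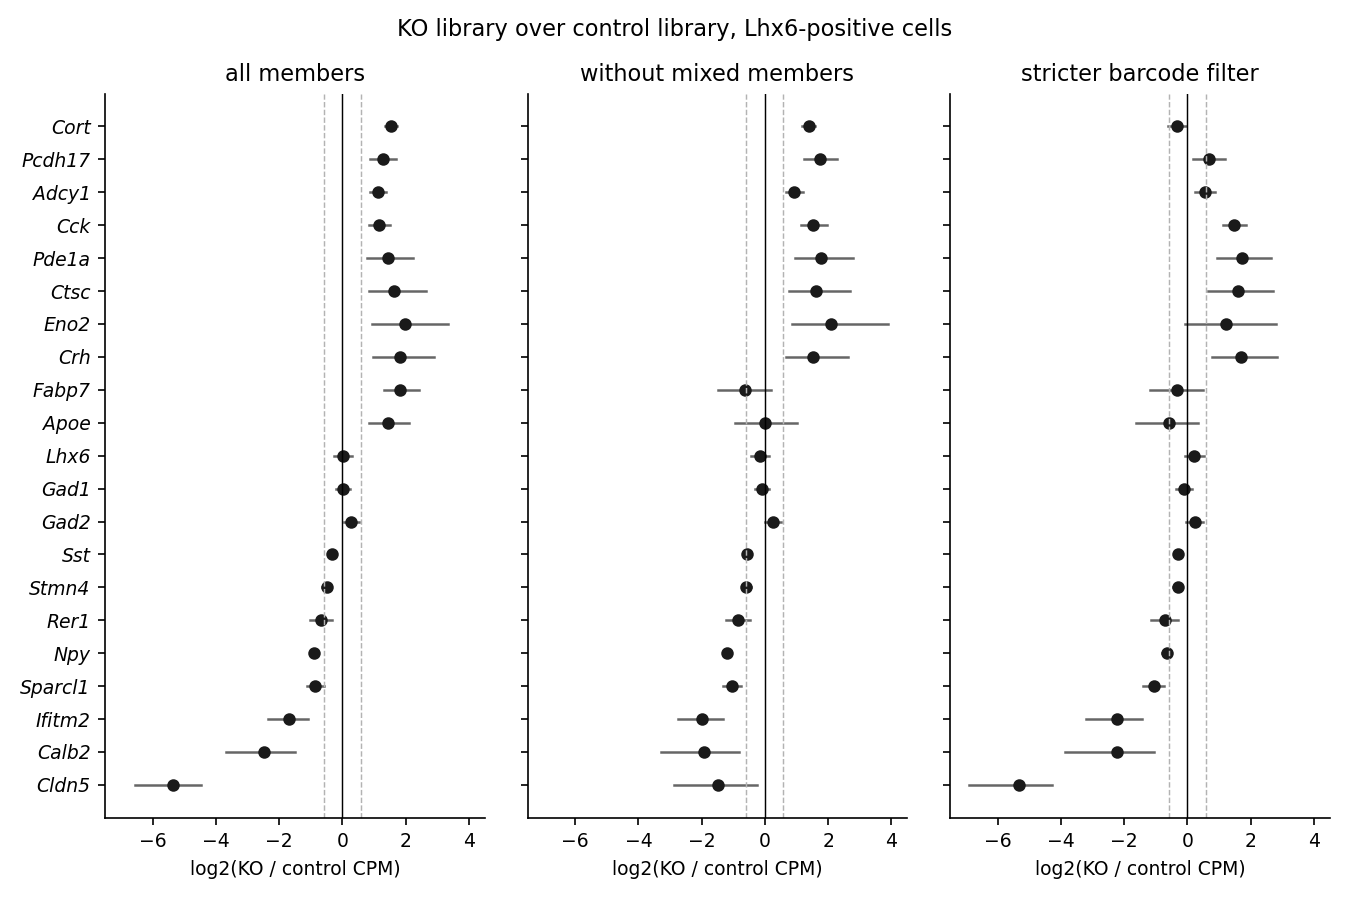
Log2 ratio of KO over control CPM in Lhx6-positive cells for 21 genes, with exact 95% intervals as grey lines and dashed lines at 1.5-fold, for all members (left), without mixed members (middle) and under the stricter barcode filter (right). Cck stays right of the 1.5-fold line and Npy left of it in all panels, Cort lies at -0.34 in the right panel, and Fabp7, Apoe and Cldn5 move towards 0 in the middle panel.

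The medians of the other gene lists lay between -0.26 and 0.24, against -0.03 over all genes. The counts of each list stand beside 7.5% higher and 10.3% lower over all genes tested. No list was tested against these shares. Of 30 measured voltage-gated channel genes, 7 were higher in KO members (Cacna1b, Cacna1c, Hcn2, Kcnc1 and Kcnh7 among them) and 2 were lower (Cacna1e and Cacna2d1), with a median of 0.24. Of these Hcn2, a channel of the pacemaker current, had 37 and 6 UMIs in KO and control members (2.05), and Kcnc1, a fast potassium channel, 155 and 73 UMIs (0.60). Without mixed members 4 of 27 were higher and 2 lower. Of 29 nuclear genes of the respiratory chain none passed 1.5-fold, with a median of 0.19, and among them Ndufa4 had 2581 and 1563 UMIs in KO and control members (0.24).

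Immediate early genes, which neurons switch on with activity or stress, moved with the mixed cells: 1 of 17 was higher in KO members (Npas4) and 5 were lower (Atf3, Ier2, Klf2, Nr4a1 and Nr4a2), with a median of -0.26, whereas without mixed members 1 of 15 was higher and none lower, with a median of 0.12. Fos had 680 and 433 UMIs in KO and control members (0.17). Of 21 measured genes of migration and guidance, 1 was higher (Gfra1) and 1 lower (Nrp1), with a median of 0.17, and Cxcr4, the chemokine receptor of migrating interneurons, had 25 UMIs in KO and 26 UMIs in control members (-0.54, 0.381 to 1.24). Of 30 cytoskeletal and immature neuron genes, none was higher and 1, Nrn1, was lower, with a median of 0.02. Of 30 synaptic genes 1 was higher (Dlg4) and 1 lower (Igsf21), with a median of 0.12. Both counts lie below the shares over all genes, 7.5% higher and 10.3% lower. Of 14 Dlx factors and interneuron regulators, 2 were higher (Dlx6 among them) and 1, Bcl11b, was lower, with a median of 0.02. The rule chose members by UMIs of Dlx genes, Dlx6os1 of this list among them, so this median is not independent of the rule. In members that were not mixed, 1 of 14 was higher and 3 were lower, with a median of -0.10. Of 20 interneuron subtype genes 3 were higher and 5 lower, with a median of 0.03. For this list, 2 of 20 were higher and 5 lower without mixed members, with a median of -0.22. Of 22 measured survival and apoptosis genes, 1 was higher (Cdkn1a) and 2 were lower (Casp9 and Trp53), with a median of -0.20. Of 22 glutamate receptor genes 3 were higher and 2 lower (median 0.14), whereas without mixed members 0 of 20 were higher and 2 lower (median 0.12). Of 15 genes of GABA-A receptors and chloride transport 1 was higher and 2 lower (median 0.12). Of 11 heat shock genes 1 was lower (median -0.13), and of 21 genes of cholesterol synthesis 2 were lower (median -0.016). The chloride cotransporters Slc12a2, which loads chloride, and Slc12a5, which extrudes it, had 21 and 87 UMIs in KO members and 9 and 53 UMIs in control members, and both ratio intervals held 1.

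Among the lineage genes of the CGE, Adarb2, an RNA-editing family protein, had 23 UMIs in 7 KO members and 3 UMIs in 2 control members (2.26, 1.66 to 28.6), and 12 of the KO UMIs lay in 1 cell. Of 14 measured CGE genes, 2 were higher in KO members and 3 lower, with a median of -0.21.

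Kdm6b, the floxed gene, had 50 UMIs in 31 KO members and 34 UMIs in 19 control members, a log2 ratio of 0.07 with an interval of 0.668 to 1.68 that held 1. Without mixed members the ratio was 0.70 (0.944 to 3.02). No source used here says which exons loxP sites flank, and 3′ reads from outside them would still count, so this value checks neither label. Kdm6a, the X-linked H3K27 demethylase, had 10 and 14 UMIs in KO and control members, and Ezh2, the enzyme that writes the mark, had 21 and 13 UMIs, with intervals that held 1 for both. Of 18 measured demethylase and Polycomb genes, 1 was higher in KO members and 4 were lower (Jarid2, Kdm6a, Phf1 and Rnf2), with a median of -0.17. Over all genes 7.5% were higher and 10.3% lower. Leaving out mixed members gave 3 higher and 3 lower of 17 genes of this list, with a median of -0.08. Prm1 had 27 UMIs in 9 KO members, 16 of them in 1 cell, and none in control members, and it also had 30 UMIs in KO endothelial cells and none in control endothelial cells. Mt3, a metallothionein, had a UMI in 58.1% of thinned KO members and 28.3% of thinned control members (unthinned 91.9% and 81.1%), against 1.57% of KO and 5.14% of control endothelial cells. Members with 5% or more mitochondrial UMIs had more Mt3, at 795 CPM against 414 CPM in the other members of the KO library and at 629 CPM against 259 CPM in those of the control library, and the part of mitochondrial content in the Mt3 difference was not tested further.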

How the data were processed

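The authors deposited raw UMI counts for each gene in each barcode, from 10x Genomics 3′ libraries, 1 per genotype with 2 animals pooled. The submitters' processing notes list Cell Ranger 3.0.2, Seurat 3 and mm10 without saying what each did. Barcodes were filtered and gated as the report states. The excitatory gate needed Neurod2, Neurod6 and Slc17a6 or Slc17a7, the endothelial gate Cldn5, Pecam1 and Flt1, both with Gad1 and Gad2 at 0. UMIs were summed per class and library, with 0.5 UMI added for log2 ratios, genes with at least 20 UMIs, Clopper-Pearson intervals for shares and conditional binomial intervals for ratios.

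Named genes were the 10 most above and 10 most below by the interval bound nearest to 1 (at least 50 UMIs, without mitochondrial, ribosomal, haemoglobin and sex-linked genes and predicted models), the same between classes by the smaller log2 ratio of the 2 libraries, up to 4 members of each list with most UMIs, and genes fixed by name. Other list members and Mt3, Elfn1, Grin3a, Neurod6, Tox and Vip were named after their values were seen. The members and lists were chosen with earlier results of these data known. Doublets were kept: Scrublet (scanpy 1.11.5) marked 11 of 2292 KO and 9 of 3555 control barcodes at its own threshold, too few to have worked, so removing its highest scores was an alternative. Python 3.11.15, numpy 2.4.6, scipy 1.17.1 and edgeR 4.0.16 (scaling factors only) were used, and the ratio step was tested on simulated data. Some members of these lists are not reported here.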

Additional observations from a re-analysis of the deposited data

Results flagged for a closer look

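For 12 named genes the KO over control ratio lay above 1 in 1 class of GABAergic cells and below 1 in the other, each with an interval that excluded 1. The difference between the classes was not tested. Npy had a log2 ratio of -0.88 in Lhx6-positive and 0.71 in Lhx6-negative cells, and Sst -0.34 and 4.14, the second from 151 KO and 9 control UMIs. Both Lhx6-negative values leaned on 1 KO cell, with 281 of 426 Npy UMIs and 125 of 151 Sst UMIs. Without the richest Lhx6-negative cell of each library, a step added after the data were seen, Npy was -0.60 there, the same direction as in Lhx6-positive cells, and Sst was 3.09. Npy had a UMI in 22.7% of KO and 31.7% of control Lhx6-negative cells. Calb2 had -2.47 in Lhx6-positive and 0.93 in Lhx6-negative cells, and Cadps2 -1.92 and 0.47. Adarb2 had 2.26 in Lhx6-positive and -0.58 in Lhx6-negative cells, Cck 1.16 and -0.15, and Crh 1.82 and -1.80. Apoe had 1.45 in Lhx6-positive and -4.26 in Lhx6-negative cells and Fabp7 1.83 and -2.39, the first value of each resting on 1 mixed KO cell. The second values leaned on mixed control cells: the richest for Apoe held 198 of 222 UMIs and the richest for Fabp7 78 of 112 UMIs, and without mixed cells they were -1.08 and -0.59 with intervals that held 1. Pafah1b1, a regulator of dynein in migrating neurons, had 0.31 in Lhx6-positive and -0.25 in Lhx6-negative cells, and the tubulin genes Tuba1a 0.12 and -0.10 and Tubb3 0.071 and -0.24. Without mixed members the Lhx6-positive ratios of Tuba1a and Tubb3 were -0.041 and -0.12, and the interval of Cadps2 held 1. In Lhx6-negative cells without mixed cells the intervals of Tuba1a and Pafah1b1 held 1, and without the richest cells those of Cadps2 and Pafah1b1 did.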

How the results depend on the processing

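No paired analysis was possible because each genotype has 1 library, and no replicate could be left out. Of 10 alternatives for the share of members, 1 left 1 member per library and cannot bear on its direction. Under all the others the share stayed larger in the KO library, with log2 ratios from 0.62 to 0.98. Among them the interval held 1 under the stricter filter. Thinning every cell to 2000 UMIs before the rule left 1 member per library, so its values, a log2 ratio of 2.00 for the share of the gate and 5 higher and 1 lower genes, say nothing. Counts of genes 1.5-fold higher and lower were 283 and 331 with at least 50 UMIs per gene, 2655 and 3300 with at least 1 UMI, and 236 and 242 with members thinned to 2000 UMIs, a step added after the data were seen, as was the one without mixed members. Genes 2-fold higher and lower than in Lhx6-negative cells numbered 30 and 23 when thinned and 63 and 53 with at least 50 UMIs, against 125 and 98. Under the stricter filter the ratios were -0.34 for Cort, -0.012 for Alkal2, -0.60 for Apoe, -0.054 for Crhbp and -0.34 for Fabp7. The cause was not tested beyond the cells left out. With 2 or more Lhx6 UMIs Crh was -0.054 and Vwa1 0.37. Without mixed members Apoe was -0.0064, Fabp7 -0.64 and Vwa1 0.53. Fabp7 was also -0.70 with doublets removed, -0.80 without members with 2 or more UMIs of another type, -0.066 in thinned members and -0.57 without its richest cells, where Vwa1 was 0.21. TMM scaling used a factor of 0.958 for KO over control, which put the median of all genes at 0.03, against 0.04 with median-of-ratios scaling. Depth limits genes with few UMIs, where intervals span several-fold.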
